A study of Mus musculus with 39 samples.

Results

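The B cell identity genes described here are 9 genes chosen by name: Cd79a, Cd79b, Ms4a1, Pax5, Cd22, Blk, Pou2af1, Fcrl5 and Fcrla. All 9 were found by gene identifier among the 49585 genes counted, and all 9 passed the filter on low counts that left 16327 genes for testing. RNA-seq was done on intestinal tumours and on unaffected tissue around them from C57BL/6 mice that all carry Apc Min/+, a truncating allele of the tumour suppressor gene Apc that gives many intestinal adenomas. One genotype also carries ADAM17 ex/ex, a hypomorphic state of the gene for the membrane protease ADAM17, which sheds growth factors and cytokine receptors from the cell surface. The other is wild type at Adam17. The groups were 17 ex/ex tumours, 6 ex/ex non-tumour samples, 12 wild-type tumours and 4 wild-type non-tumour samples, each library being 1 replicate. The labels used here give no animal, age, sex or batch and do not say where along the intestine a sample was taken. Several samples may therefore share an animal, and the p-values measure only the spread between these samples.

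B cells recognise antigen with a surface immunoglobulin that signals through a pair of partner chains, and they are held in their fate by a small set of transcription factors. In the intestine they sit mainly in Peyer's patches and in isolated lymphoid follicles, while the mucosa between these structures holds mostly antibody-secreting plasma cells. Plasma cells shut down Pax5, Ms4a1 and Cd22 but keep Cd79a and Pou2af1 to varying degree. In bulk tissue, fewer B cells and less RNA per B cell cannot be told apart.

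Some libraries stood apart. Gene counts per library lay between 5668185 and 11112321 in 38 of the 39 libraries, whereas wild-type non-tumour replicate 1 held 438639, so that 1 read there equalled 6.06 CPM (counts scaled to a common library total with TMM factors). Adam17 itself averaged 23.7 ± 5.61 CPM in ex/ex tumours and 11.1 ± 1.87 CPM in ex/ex non-tumour tissue, against 54.7 ± 12.9 CPM in wild-type tumours and 42.2 ± 24.97 CPM in wild-type non-tumour tissue (SD), and it was lower in ex/ex tumours than in wild-type tumours (log2 fold change -1.21 ± 0.14 SE, edgeR adjusted p = 7.25e-08). The Y-linked gene Ddx3y was at 33.9 to 44.1 CPM in ex/ex tumour replicates 1, 2 and 3 and in ex/ex non-tumour replicates 1 and 2, against at most 0.202 CPM in any wild-type library. Across 8 epithelial genes such as Epcam, Cdh1 and the keratins, wild-type tumour replicate 4 had a mean log2(CPM + 0.5) of 5.77, against 8.16 to 11.03 in the other 28 tumours, and its label as a tumour could not be checked from epithelium. Libraries of the same group never agreed within sampling noise.

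The 9 genes lie on separate chromosomes except for Cd79a and Cd22. Upstream sequences from the RefSeq promoter table (GRCm38.p6) were present for 6 of the 9, Cd79b, Ms4a1 and Blk being without an entry. Shown here, 5′ to 3′ on the gene's strand and restricted to bases in no annotated exon of the gene, are a receptor chain (Cd79a), the lineage factor (Pax5), the octamer coactivator (Pou2af1) and the inhibitory receptor (Cd22), because these 4 differ in what was measured outside tumours while sharing the pattern across tumours. Capitals mark a match to the EBF1 core motif.
Cd79a (chr7:24897247-24897380, plus strand): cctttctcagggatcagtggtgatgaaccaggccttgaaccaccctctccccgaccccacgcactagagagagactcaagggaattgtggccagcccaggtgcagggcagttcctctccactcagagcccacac
Pax5 (chr4:44710695-44710944, minus strand): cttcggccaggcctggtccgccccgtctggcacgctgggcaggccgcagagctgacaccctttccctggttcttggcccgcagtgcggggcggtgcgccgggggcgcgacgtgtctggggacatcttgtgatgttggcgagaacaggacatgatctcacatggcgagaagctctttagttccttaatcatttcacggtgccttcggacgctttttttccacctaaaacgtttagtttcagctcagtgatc
Pou2af1 (chr9:51213440-51213689, plus strand): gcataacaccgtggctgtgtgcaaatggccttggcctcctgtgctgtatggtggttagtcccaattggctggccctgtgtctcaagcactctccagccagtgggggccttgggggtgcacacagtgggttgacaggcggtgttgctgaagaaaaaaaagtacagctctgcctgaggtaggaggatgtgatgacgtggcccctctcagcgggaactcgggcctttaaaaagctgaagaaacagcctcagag
Cd22 (chr7:30879029-30879176, minus strand): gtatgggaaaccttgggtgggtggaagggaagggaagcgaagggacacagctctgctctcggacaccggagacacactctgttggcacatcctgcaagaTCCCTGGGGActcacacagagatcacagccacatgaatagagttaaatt
In the 250 bases before the RefSeq start, 3 motifs were searched on both strands, with no overlap between them in the members. The EBF1 core, TCCC and GGGA with 2 bases between, occurred in 1 of the 6 windows, that of Cd22, as TCCCTGGGGA at 49 to 40 bases before the start, and in 0.779% of all 32851 promoters of the table. The Cd22 stretch lies between annotated exons of longer Cd22 transcripts. The octamer ATGCAAAT, present in 1.6% of all promoters, and the PU.1 motif GAGGAAGT, present in 2.44%, were in none of the 6 windows. These are letter matches only.

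In ex/ex tumours all 9 genes were higher than in ex/ex non-tumour tissue, by 4.30 to 8.11 on the log2 scale. All 9 passed the test, against 23.8% of all genes tested that were called higher in that comparison. Genes of intestinal position moved in the same comparison: 3 of 5 distal small intestine genes were higher in ex/ex tumours, among them Fabp6 (6.82 ± 1.86) and Fgf15 (5.63 ± 1.46), and 7 of 7 proximal genes were lower, among them Akp3 (-9.92 ± 0.79) and Pdx1 (-7.93 ± 0.82). Over all genes tested, 23.3% were called lower there. The mean log2 level of the distal list was 3.10 to 9.28 in ex/ex tumours (median 7.16), against 2.96 to 5.93 in ex/ex non-tumour tissue (median 3.18). That of the proximal list was 1.31 to 2.96 in ex/ex tumours (median 1.95), against 2.93 to 8.84 in ex/ex non-tumour tissue (median 4.47). Ex/ex non-tumour replicates 3 and 4 stood at 8.53 and 8.84 for the proximal list, and the other ex/ex non-tumour libraries between 2.93 and 4.67. With a covariate for position in the fit, 9 of 9 members were called, Cd79a at 4.88 and Ms4a1 at 7.58. That fit called 2082 of all 16327 genes higher. Ex/ex tumour replicates 12, 13 and 14, with distal means of 3.44, 3.30 and 3.10, had member means of 7.81, 7.41 and 7.56. Replicates 1, 2 and 7, with distal means of 4.03, 4.07 and 3.94, had member means of 4.69, 0.70 and 6.88. The covariate was made from genes, and the part of intestinal position in the differences of the members was not tested. The differences of the members came as a near all-or-none pattern over tumours: 16 of 17 ex/ex tumours and 4 of 12 wild-type tumours held more of Cd79a, Cd79b, Ms4a1, Pax5, Cd22, Blk and Fcrla than any of the 9 non-tumour libraries of normal depth. For Pou2af1 that count was 16 of 17 ex/ex tumours and 3 of 12 wild-type tumours, and for Fcrl5 it was 16 of 17 and 6 of 12.

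**Figure D1:**
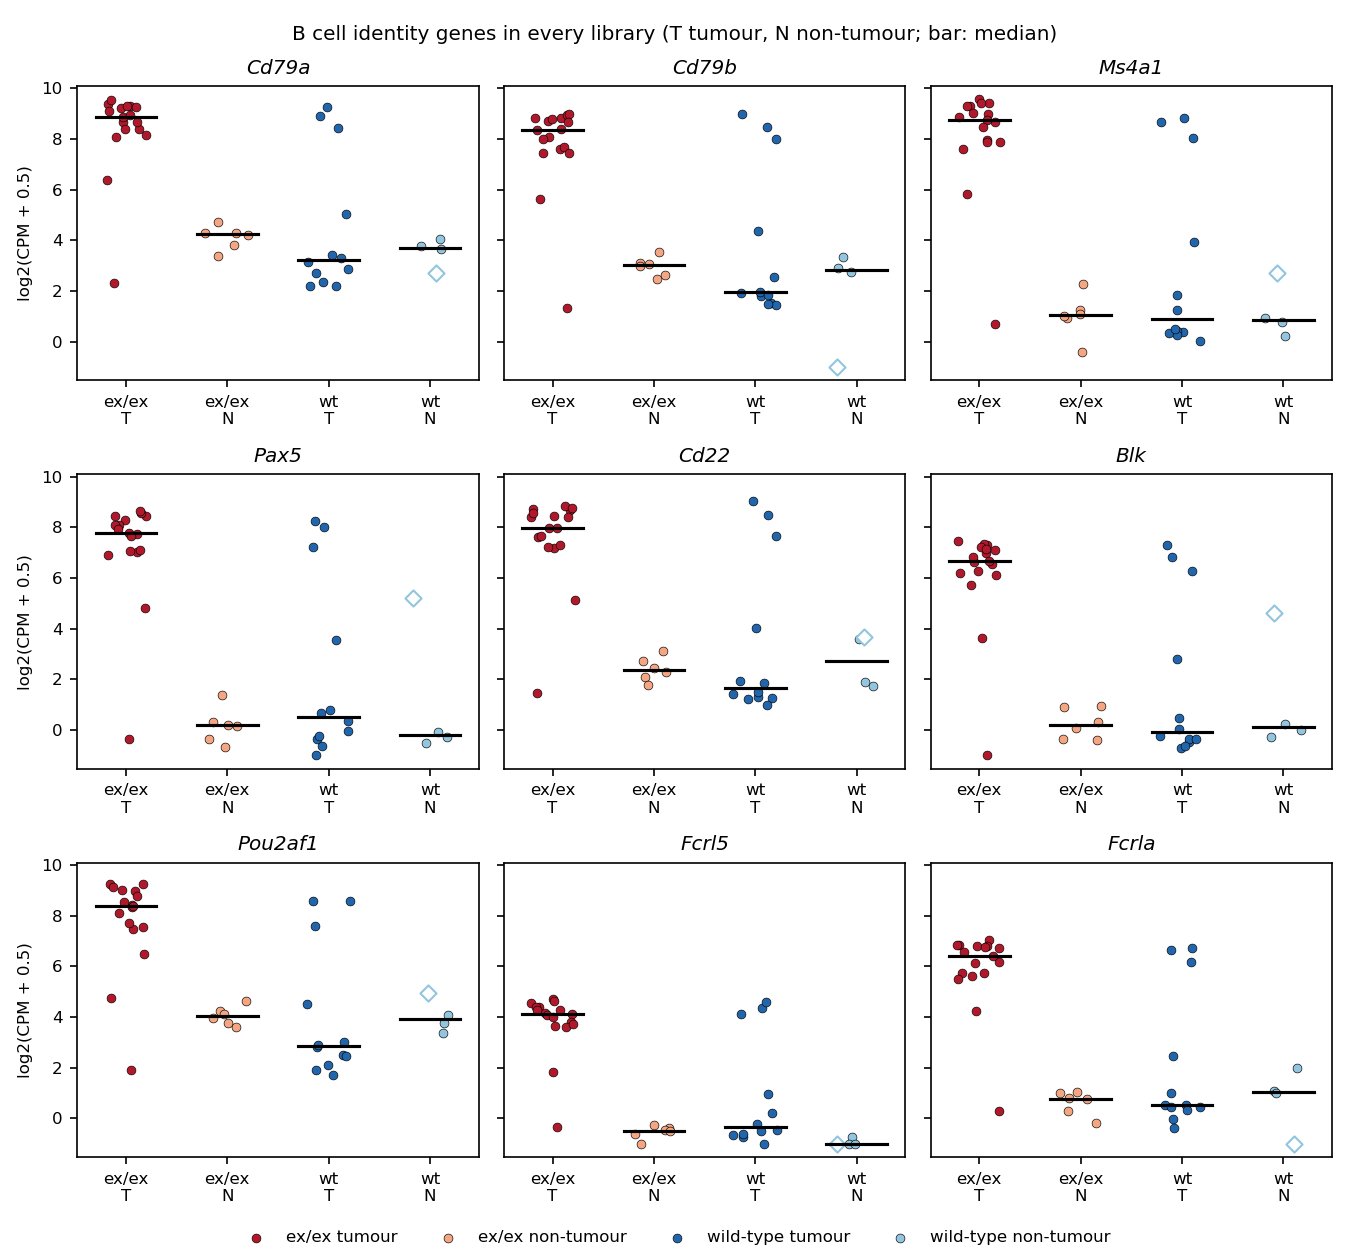
Levels of the 9 B cell identity genes as log2(CPM + 0.5) in every library, by genotype and tissue (T tumour, N non-tumour; wt is wild type at Adam17). Each point is 1 library, the bar is the group median, and the open diamond is the shallow wild-type non-tumour replicate 1. Of the 17 ex/ex tumours 16 sit above every non-tumour library of normal depth for each gene. Of the 12 wild-type tumours 4 do so for each gene except Pou2af1 (3 of 12) and Fcrl5 (6 of 12). For Cd79a, 7 of the 12 wild-type tumours sit below every non-tumour library of normal depth.

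Cd79a (ENSMUSG00000003379.7, GRCm38 chr7:24897381-24902197, plus strand) encodes Ig-alpha, one of the signalling chains of the B cell receptor. It measured 4.41 CPM at the lowest, 462 at the median and 739 at the highest in ex/ex tumours, against 9.93, 18.4 and 25.8 CPM in ex/ex non-tumour tissue. In wild-type tumours the lowest, median and highest values were 4.07, 8.74 and 616 CPM, against 6.06, 13.2, 11.9 and 16.1 CPM in wild-type non-tumour replicates 1 to 4. Of the ex/ex tumours, 16 lay above all ex/ex non-tumour libraries and replicate 2 lay below them all, while the wild-type groups overlapped. Cd79a was higher in ex/ex tumours than in ex/ex non-tumour tissue by 4.66 ± 1.10 (log2 fold change ± SE, edgeR adjusted p = 0.00102). Its partner Cd79b (ENSMUSG00000040592.11, chr11:106311341-106314762, minus strand), which encodes Ig-beta, measured 1.99, 328 and 509 CPM (lowest, median, highest) in ex/ex tumours, against 5.12, 7.73 and 11.04 CPM in ex/ex non-tumour tissue. For Cd79b, wild-type tumours held 2.26, 3.35 and 506 CPM, against 0, 6.16, 6.90 and 9.55 CPM in the 4 wild-type non-tumour libraries. Ex/ex tumours exceeded ex/ex non-tumour tissue by 5.32 ± 1.24 in Cd79b (edgeR adjusted p = 0.000879). The read ratio of Cd79a to Cd79b ran from 1.33 to 2.21 over ex/ex tumours with a median of 1.46, against 1.75 to 2.62 with a median of 2.36 in ex/ex non-tumour tissue, and from 1.21 to 3.95 over wild-type tumours.

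Ms4a1 (ENSMUSG00000024673.9, chr19:11249675-11266241, minus strand) encodes CD20, a surface protein of B cells that plasma cells lose. It measured 1.14, 431 and 754 CPM (lowest, median, highest) in ex/ex tumours, against 0.263, 1.57 and 4.35 CPM in ex/ex non-tumour tissue. For Ms4a1, wild-type tumours held 0.532, 1.39 and 454 CPM, against 6.06 (a single read), 1.21, 1.42 and 0.670 CPM in wild-type non-tumour replicates 1 to 4. By library, Ms4a1 was at 196 CPM or more in 15 of 17 ex/ex tumours, at 56.5 CPM in replicate 1 and at 1.14 CPM in replicate 2. In wild-type tumours it was at 454, 401 and 263.8 CPM in replicates 1, 4 and 7 and at 14.7 CPM in replicate 2, and it was between 0.532 and 3.10 CPM in the remaining 8. Mean and median therefore part in wild-type tumours, where Ms4a1 averaged 95.3 ± 173 CPM (SD) around a median of 1.39, against 2.34 ± 2.50 around 1.32 in wild-type non-tumour tissue. The ex/ex tumours averaged 412 ± 225 CPM and ex/ex non-tumour tissue 1.84 ± 1.35 CPM, a log2 fold change of 7.78 ± 1.63 (edgeR adjusted p = 0.000311).

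Pax5 (ENSMUSG00000014030.15, chr4:44524757-44710487, minus strand) encodes the transcription factor that commits precursors to the B lineage and is silenced in plasma cells. It measured 0.285, 219 and 394 CPM (lowest, median, highest) in ex/ex tumours, against 0.131, 0.638 and 2.12 CPM in ex/ex non-tumour tissue, with a log2 fold change of 8.11 ± 1.76 (edgeR adjusted p = 0.000446). Wild-type tumours held 0, 0.934 and 305 CPM of Pax5, against 36.3, 0.202, 0.438 and 0.335 CPM in the 4 wild-type non-tumour libraries. The value of 36.3 stands on 6 reads of the shallow library. Pou2af1 (ENSMUSG00000032053.8, chr9:51213708-51240080, plus strand) encodes a coactivator of octamer-binding factors that B cells and plasma cells both express. It measured 3.27, 329 and 609 CPM in ex/ex tumours, against 11.8, 15.9 and 24.5 CPM in ex/ex non-tumour tissue, and its log2 fold change was the smallest of the 9 at 4.30 ± 1.09 (edgeR adjusted p = 0.00185). For Pou2af1, wild-type tumours held 2.75, 6.81 and 378 CPM, against 30.3, 12.9, 9.97 and 16.4 CPM in wild-type non-tumour replicates 1 to 4. Transcripts on the opposite strand overlap exons of Pax5 and of Cd22, and since the strand setting of the counting is not given in the sources used here, reads of these partners may be included.

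Cd22 (ENSMUSG00000030577.14, chr7:30865402-30880342, minus strand) encodes a sialic acid-binding receptor that damps B cell receptor signals. It measured 2.28, 253.5 and 458 CPM (lowest, median, highest) in ex/ex tumours, against 2.93, 4.66 and 8.26 CPM in ex/ex non-tumour tissue, a log2 fold change of 5.70 ± 1.33 (edgeR adjusted p = 0.000866). Wild-type tumours held 1.46, 2.71 and 528 CPM of Cd22, against 12.1, 2.83, 3.18 and 11.6 CPM in the 4 wild-type non-tumour libraries. Blk (ENSMUSG00000014453.3, chr14:63372836-63417037, minus strand) encodes a Src-family kinase that acts below the receptor. It was absent from the reads of ex/ex tumour replicate 2 and measured 102 CPM at the median and 178 at the highest in ex/ex tumours, against 0.263, 0.649 and 1.45 CPM in ex/ex non-tumour tissue. Its log2 fold change was 7.005 ± 1.54 (edgeR adjusted p = 0.000524). Wild-type tumours held 0.117, 0.445 and 157 CPM of Blk, against 24.2 (4 reads), 0.505, 0.329 and 0.670 CPM in wild-type non-tumour tissue.

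Fcrl5 (ENSMUSG00000048031.15, chr3:87435773-87500678, plus strand) encodes an Fc receptor-like surface protein found on subsets of B cells. It was the least abundant member, with 0.285, 16.7 and 25.8 CPM (lowest, median, highest) in ex/ex tumours, against 0, 0.219 and 0.327 CPM in ex/ex non-tumour tissue, a log2 fold change of 6.20 ± 1.23 (edgeR adjusted p = 0.000182). Wild-type tumours held 0, 0.295 and 23.4 CPM of Fcrl5, against 0, 0.101, 0 and 0 CPM in wild-type non-tumour tissue, where 1 read was counted in all. Fcrla (ENSMUSG00000038421.13, chr1:170917576-170927583, minus strand) encodes a related protein that stays inside the B cell. It measured 0.712, 85.3 and 130 CPM in ex/ex tumours, against 0.394, 1.21 and 1.56 CPM in ex/ex non-tumour tissue, a log2 fold change of 6.11 ± 1.26 (edgeR adjusted p = 0.000281). Wild-type tumours held 0.281, 0.934 and 105 CPM of Fcrla, against 0, 1.62, 1.53 and 3.52 CPM in wild-type non-tumour tissue. The call of 9 of 9 genes in ex/ex tumours over ex/ex non-tumour tissue held in every fit that left out 1 of the 39 libraries and under all 10 other settings.

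Per length of exon, the members kept a nearly fixed order in ex/ex tumours. Median FPKM (CPM per kilobase of exon, from the union of exons) were 317 for Cd79a, 228.9 for Cd79b, 129 for Pou2af1, 69.7 for Ms4a1, 50.3 for Cd22, 48.9 for Fcrla, 37.7 for Blk, 24.7 for Pax5 and 4.80 for Fcrl5. Cd79a lay above Cd79b, Cd79b above Pou2af1 and Pou2af1 above Ms4a1 in 17 of 17 ex/ex tumours. Further down the order was less strict, with Ms4a1 above Cd22 in 15 of 17 ex/ex tumours and Cd22 above Fcrla in 15 of 17. In wild-type tumours Cd79a lay above Cd79b per length in 12 of 12, but Ms4a1 lay above Cd22 in 2 of 12.

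Wild-type tumours as a group gave few calls. Of the 9 genes, 1 passed the test as higher in wild-type tumours than in wild-type non-tumour tissue, against 1.9% of all genes tested in that direction. That gene was Fcrl5, with a fitted log2 fold change of 6.66 ± 2.06 and an edgeR adjusted p of 0.04999, just inside the threshold of 0.05. Its level in wild-type tumours averaged 5.26 CPM around a median of 0.295 CPM, with 19.8, 23.4 and 16.7 CPM in replicates 1, 4 and 7. That mean was 133 times the level of the pooled wild-type non-tumour libraries, with an interval of 23.8 to 5238 times (95% exact Poisson on the single read, counting error only). The Fcrl5 call held in 10 of 39 fits that left out 1 library, those without wild-type tumour replicate 3, 5, 6, 8, 9, 10, 11 or 12 or without ex/ex tumour replicate 1 or 2, and it was lost in the fit without any of the other 29. Over all 39 the adjusted p for Fcrl5 ran from 0.0388 to 0.162. For the other 8 genes the log2 fold changes in wild type were 2.52 (Pou2af1) to 6.28 (Ms4a1) with SEs of 1.28 to 2.45, and the edgeR adjusted p-values lay between 0.0663 and 0.25. Under limma-voom with quality weights the estimate was below 0 for 4 of these genes, Cd79a (-0.41), Cd79b (-0.45), Pou2af1 (-0.72) and Fcrla (-0.30), and it was 0.61 for Ms4a1, 1.30 for Pax5, 0.18 for Cd22 and 0.32 for Blk. DESeq2 called 6 of the 9 higher, against 3.77% of all genes in that fit, and limma-voom called 0 of 9, against 19.8%.

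**Figure D2:**
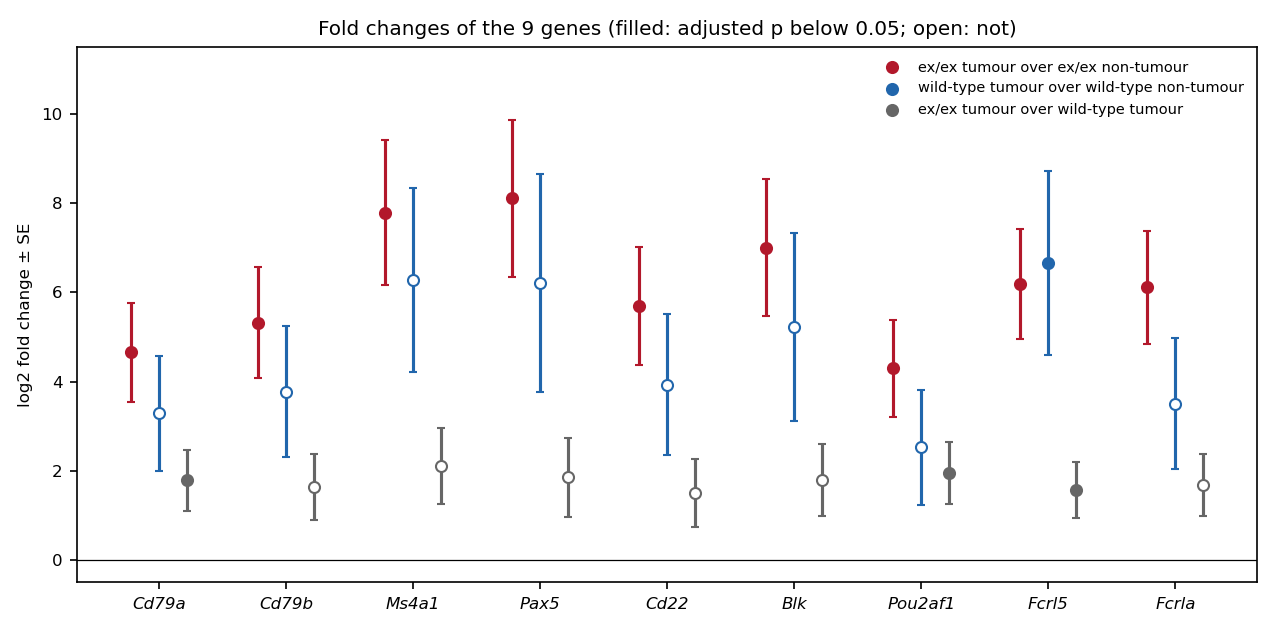
Log2 fold change with SE from the edgeR fit for each of the 9 genes, for ex/ex tumour over ex/ex non-tumour tissue (red), wild-type tumour over wild-type non-tumour tissue (blue) and ex/ex tumour over wild-type tumour (grey). Filled points have an adjusted p below 0.05. All 9 red points, 1 blue point and 3 grey points are filled, and the blue error bars are wider than the red ones for every gene.

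Between tumours of the 2 genotypes the members were on average higher in ex/ex, by 1.51 to 2.11 on the log2 scale. Of the 9 genes, 3 passed the test, against 15.2% of all genes tested that were called higher. They were Cd79a (1.79 ± 0.69, edgeR adjusted p = 0.0427), Pou2af1 (1.95 ± 0.70, 0.0302) and Fcrl5 (1.58 ± 0.63, 0.0492). Cd79a averaged 441 ± 205 CPM in ex/ex tumours and 127 ± 221 CPM in wild-type tumours, around medians of 462 and 8.74 CPM. Pou2af1 averaged 328 ± 194 CPM in ex/ex tumours and 84.5 ± 147 CPM in wild-type tumours, around medians of 329 and 6.81 CPM. The groups overlapped at both ends, since the highest wild-type tumour, replicate 4, exceeded the ex/ex median of each of the 9 genes apart from Ms4a1. Ms4a1 (2.11 ± 0.86, edgeR adjusted p = 0.0546), Fcrla (1.69 ± 0.70, 0.0565) and Cd79b (1.64 ± 0.74, 0.0805) lay outside the threshold, as did Blk (1.79 ± 0.81, 0.0826), Pax5 (1.86 ± 0.89, 0.1) and Cd22 (1.51 ± 0.77, 0.122).

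The count of 3 was sensitive to single libraries. Without wild-type tumour replicate 4 it was 9, without wild-type tumour replicate 1 it was 8, without ex/ex tumour replicate 2 it was 7, and without ex/ex tumour replicate 1 or wild-type tumour replicate 7 it was 5. It was 0 without any one of ex/ex tumour replicates 4, 5, 8, 9 and 10 or of wild-type tumour replicates 2 and 8. It was 1 without any one of ex/ex tumour replicates 11, 12, 14 and 17, wild-type tumour replicates 3, 5, 6, 9, 10, 11 and 12, or wild-type non-tumour replicate 4. In 14 further fits, among them each of the 6 without an ex/ex non-tumour library, it was 2, and it stayed at 3 in 1 fit, without ex/ex tumour replicate 3. The number of all genes called higher also moved. With all libraries it was 2488 of 16327. Without wild-type tumour replicate 4 it was 4043 of 16248, and without wild-type tumour replicate 8 it was 1907 of 16306. With wild-type tumour replicate 4 and the shallow wild-type non-tumour library both left out, all 9 were higher in ex/ex tumours, Cd79a by 2.41 and Ms4a1 by 2.61 on the log2 scale. That fit called 3996 of all 16502 genes higher. Without the 5 libraries with over 10 CPM of Ddx3y, 7 of 9 were called, against 3665 of all 16284 genes in that fit. By tool, DESeq2 called 5 of 9, against 17.6% of all genes in that fit. Limma-voom with quality weights, which compares weighted means of log values, called 9 of 9, against 33.7% of all genes in that fit. Its log2 fold changes lay between 5.38 (Pou2af1) and 7.89 (Pax5). The weights, set for each library, are not reported here. Which of the libraries came from the same animal was not tested.

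In non-tumour tissue the genotypes gave no call. Of the 9 genes, 0 differed between ex/ex and wild-type non-tumour tissue by edgeR, against 1.42% of all genes tested in either direction, and 0 had an unadjusted p under 0.05. DESeq2 and limma-voom likewise called 0 of 9, against 1.87% and 9.78% of all genes in either direction. The fitted log2 fold changes ran from -0.91 (Fcrla) to 2.05 (Fcrl5). The difference between the tumour effects of both genotypes, tested as an interaction, gave 0 of 9 calls by edgeR and 0 at an unadjusted p under 0.05, against 0.202% of all genes tested in either direction. Interaction estimates were between 1.37 (Cd79a) and 2.60 (Fcrla) for 8 genes and -0.47 for Fcrl5. DESeq2 called 0 of 9 interactions, against 0.811% of all genes in either direction. Limma-voom with quality weights called 9 of 9 as higher, including Fcrl5 at 4.33, in a fit that called 51.8% of all genes in either direction.

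The members varied together from tumour to tumour. Within ex/ex tumours the SD of a member's log2(CPM + 0.5) was 1.25 (Fcrl5) to 2.15 (Pax5), whereas the SD of its log2 ratio to the mean of the other 8 was 0.129 for Cd79b, 0.157 for Cd22, 0.187 for Cd79a and at most 0.764 (Fcrl5). Within wild-type tumours the SD of the level was 2.17 (Fcrl5) to 3.58 (Pax5), and the SD of the ratio was 0.255 for Cd22 and at most 0.950 (Fcrl5). Fcrl5 was the least abundant member, so the pseudocount narrows its log range the most, which also enters the SD of its ratio. Ordered by the mean log2 level of the 9 genes, ex/ex tumours had replicate 2 at 0.70, replicate 1 at 4.69 and the other 15 between 6.60 and 8.18. Wild-type tumours had 8 libraries between 0.64 and 1.44, replicate 2 at 3.52, and replicates 7, 1 and 4 at 7.06, 7.68 and 7.93. The non-tumour libraries lay between 1.18 and 2.16 in ex/ex tissue and between 1.38 and 2.32 in wild type. Both low ex/ex tumours are among the 3 ex/ex tumours with Ddx3y, and the third of these, replicate 3, had a mean of 6.60, so replicates 1 to 3 were the lowest 3 of 17. The part of sex or shared animals in this order was not tested.

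**Figure D3:**
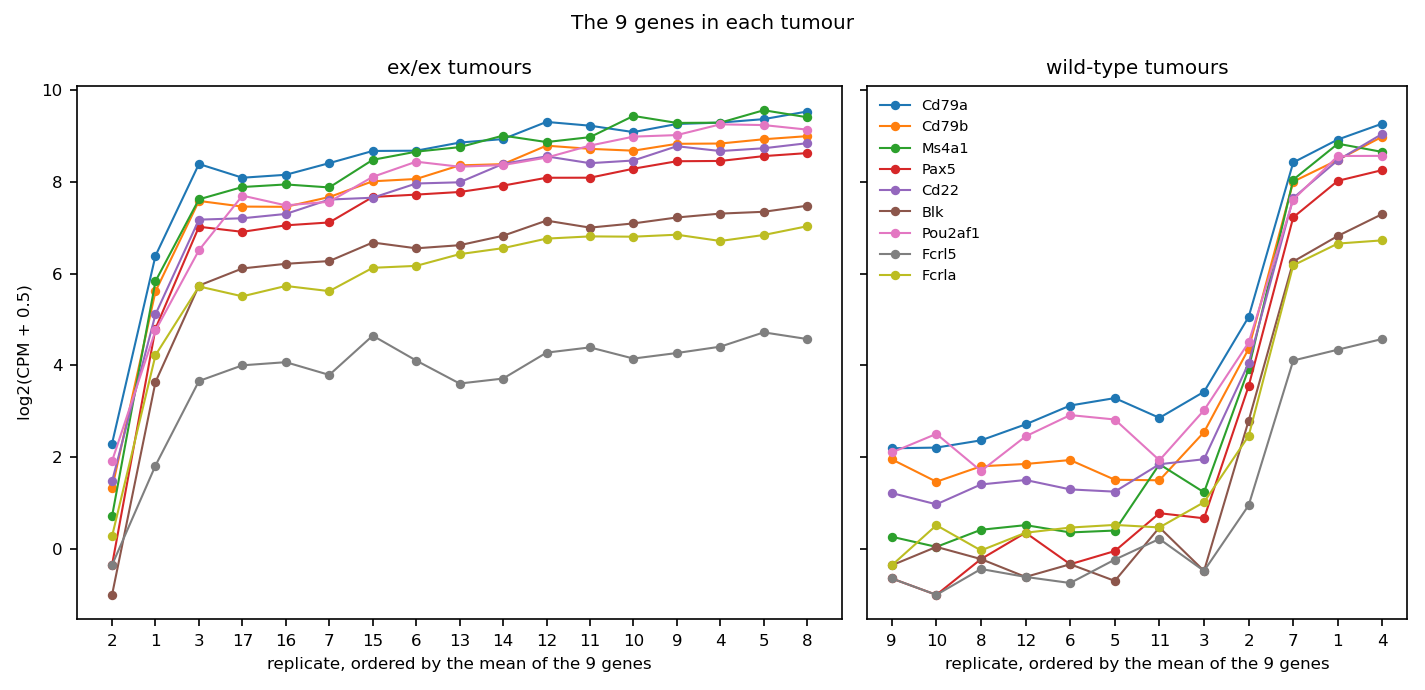
Levels of the 9 genes as log2(CPM + 0.5) in each of 17 ex/ex tumours (left) and 12 wild-type tumours (right), with tumours ordered by the mean of the 9 genes and 1 coloured line per gene. The lines run nearly parallel, with 1 low and 1 intermediate ex/ex tumour, and with 8 low, 1 intermediate and 3 high wild-type tumours.

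Outside the B cell-rich tumours the members differed in their residual level. Cd79a at 9.93 to 25.8 CPM and Pou2af1 at 9.97 to 24.5 CPM were present in every non-tumour library of normal depth, Cd79b (5.12 to 11.04 CPM) and Cd22 (2.83 to 11.6 CPM) lay lower, and Ms4a1, Pax5, Blk, Fcrl5 and Fcrla stayed at or below 4.35 CPM there. The read ratio of Cd79a to Ms4a1 was 1.14 at the median in ex/ex tumours, against 10.9 in ex/ex non-tumour tissue. That of Pou2af1 to Ms4a1 was 0.799 in ex/ex tumours, against 11.2 in ex/ex non-tumour tissue. Pax5 to Ms4a1 was 0.538 in ex/ex tumours, against 0.466 in ex/ex non-tumour tissue. That ratio ran from 0.25 to 0.660 over ex/ex tumours and from 0.154 to 0.5 over ex/ex non-tumour libraries, where it stands on few reads. Some tumours held less than this residual level. Cd79a in ex/ex tumour replicate 2 and in 7 of 12 wild-type tumours lay below every non-tumour library of normal depth, and the same held for Pou2af1 in ex/ex tumour replicate 2 and in 8 of 12 wild-type tumours. Cd79b showed this in 1 of 17 ex/ex and 7 of 12 wild-type tumours, and Cd22 in 1 of 17 and 6 of 12.

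Plasma cell genes, chosen by name like the other lists below, gave calls in both directions. Of 9, 2 were higher in ex/ex tumours than in ex/ex non-tumour tissue, Mzb1 (1.72 ± 0.62) and Irf4 (2.05 ± 0.71), both named after their values were seen, and 4 were lower, against 23.8% of all genes called higher and 23.3% called lower, with a median over the list of -0.22 against -0.03 for all genes tested. The lower ones were Igha, the heavy chain of IgA (-1.45 ± 0.34, edgeR adjusted p = 0.000819), Jchain, which joins IgA dimers (-1.23 ± 0.30), Tnfrsf17, the survival receptor BCMA (-1.48 ± 0.40), and Xbp1, a factor of secretory cells that epithelium also expresses (-0.70 ± 0.11). Igha measured 1330, 3156 and 6201 CPM (lowest, median, highest) in ex/ex tumours, against 5360, 8302 and 14880 CPM in ex/ex non-tumour tissue. Igha thus stood higher around ex/ex tumours than in them, with an overlap between 5360 and 6201 CPM, whereas Cd79a and Ms4a1 stood higher in the tumours.

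Other B cell genes were counted over lists. Of 18 genes for B cell receptor coreceptors and signalling, 17 were higher and 1 was lower in ex/ex tumours than in ex/ex non-tumour tissue. That stands against 23.8% and 23.3% of all genes tested. Their median log2 fold change was 3.13, against -0.03 for all genes tested. Between tumours, 13 of the 18 were higher in ex/ex and 1 was lower, against 15.2% and 18% of all genes tested. There the median of the 18 was 1.45, against -0.01 for all genes tested. By smallest p in ex/ex tumours over ex/ex non-tumour tissue, these were led by Syk, the kinase that binds the phosphorylated receptor chains (3.34 ± 0.64, edgeR adjusted p = 0.000109), Pik3ap1, an adaptor for PI3 kinase (3.99 ± 0.80), and Plcg2, the phospholipase downstream of Btk (2.48 ± 0.51). Cd81, a tetraspanin that many other cell types also express, was the 1 lower gene (-0.80 ± 0.16).

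All 12 genes listed as B cell transcription factors were higher in ex/ex tumours, both over ex/ex non-tumour tissue (median 3.49) and over wild-type tumours (median 1.60). The list also holds Klhl6, whose product is not a transcription factor. Over all genes tested, 23.8% were called higher in the first comparison and 15.2% in the second. Bach2, which holds off plasma cell differentiation, was higher by 3.02 ± 0.60 over ex/ex non-tumour tissue, Foxo1 by 1.20 ± 0.24, the Ets factor Spib by 4.43 ± 0.90 and Pou2f2, an octamer-binding partner of the Pou2af1 product, by 4.98 ± 1.03. Of 12 surface and homing genes of mature B cells, all were higher in ex/ex tumours than in ex/ex non-tumour tissue (median 5.72) and 4 were higher than in wild-type tumours (median 1.58). Those with the smallest p over ex/ex non-tumour tissue were the costimulatory receptor gene Cd40 (4.01 ± 0.82), Cd180 (4.94 ± 1.03), the chemokine receptor gene Ccr6 (6.28 ± 1.32) and the BAFF receptor gene Tnfrsf13c (6.25 ± 1.32). In wild-type tumours over wild-type non-tumour tissue, edgeR called 1 of the 18 signalling genes higher, against 1.9% of all genes tested. It called 0 of the 12 genes listed as transcription factors (5 at an unadjusted p under 0.05). Of the 12 surface genes it also called 0 (11 at an unadjusted p under 0.05).

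Stage markers were split. Of 7 early B lineage genes, 5 stayed below the filter: Rag1, Dntt, Vpreb1, Vpreb2 and Igll1 had medians of 0 to 0.289 CPM in ex/ex tumours and of at most 0.122 CPM in the tissue around them. Vpreb3, which mature B cells also express, was higher in ex/ex tumours by 4.36 ± 0.99 over ex/ex non-tumour tissue, while the recombinase gene Rag2 was not called there (0.33 ± 0.29). Of 6 germinal centre genes tested, 5 were higher in ex/ex tumours than in ex/ex non-tumour tissue, against 23.8% of all genes tested. All 6 were higher in ex/ex tumours than in wild-type tumours, against 15.2% of all genes tested. S1pr2, a receptor that confines cells to the germinal centre, was higher over ex/ex non-tumour tissue by 4.34 ± 0.81 and Bcl6, the factor that directs germinal centre fate, by 1.87 ± 0.41.

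Genes of other cell types moved beside the members. Of 14 T cell genes, 12 were higher in ex/ex tumours than in ex/ex non-tumour tissue, against 23.8% of all genes tested, with a median of 2.25. The smallest p-values were those of Cd5 (3.94 ± 0.87) and Cd2 (4.64 ± 1.08). The CD3 chain genes rose by 2.37 (Cd3d), 1.79 (Cd3e) and 1.40 (Cd3g), while Cd8a (0.31) and Bcl11b (0.06) were not called. Between ex/ex and wild-type tumours edgeR called 0 of the 14 (4 at an unadjusted p under 0.05), against 15.2% of all genes higher. The mean log2 level of the T cell genes was 5.24 to 5.61 in wild-type tumour replicates 1, 4 and 7 and at most 5.03 in any ex/ex tumour. All 7 follicular stroma and lymphoid chemokine genes tested were higher in ex/ex tumours than in ex/ex non-tumour tissue, the B cell attractant Cxcl13 by 6.05 ± 1.21. Epithelial genes gave 0 of 8 calls between ex/ex tumours and ex/ex non-tumour tissue by edgeR, against 23.8% of all genes called higher and 23.3% lower. Of the 8, 0 had an unadjusted p under 0.05, against 8933 of all 16327 genes tested. Between ex/ex and wild-type tumours 4 of 8 epithelial genes were lower, against 18% of all genes tested, Krt18 by the widest margin of the 4 (-2.07 ± 0.36). In single tumours, the epithelial mean log2 level was 8.16 in ex/ex replicate 5, where the members stood at 8.14, and 10.9 in ex/ex replicate 2, where they stood at 0.70. The part of tissue composition in the differences of the members was not tested.

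**Figure D4:**
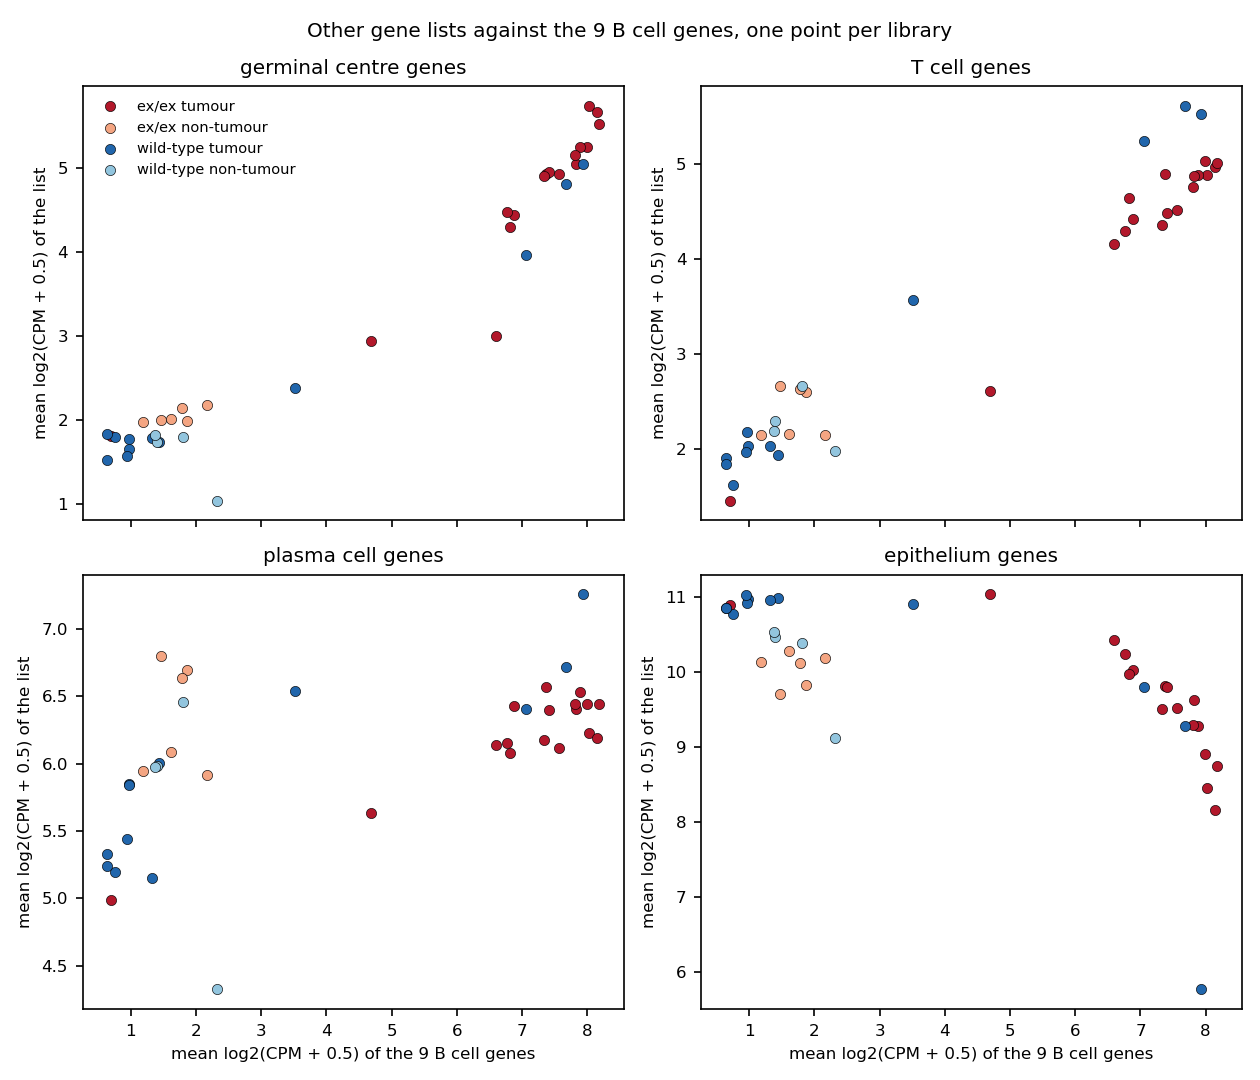
Mean log2(CPM + 0.5) of germinal centre, T cell, plasma cell and epithelial genes (vertical axes) against that of the 9 B cell identity genes (horizontal axes), 1 point per library, coloured by genotype and tissue. Germinal centre and T cell genes are high in most tumours where the 9 genes are high. Lower are ex/ex tumour replicate 3 (6.60 for the 9 genes, 3.01 for germinal centre genes) and replicate 1 (4.69 and 2.61 for T cell genes). Plasma cell genes reach 6.80 in ex/ex non-tumour tissue, where the 9 genes are low. They reach 7.25 in wild-type tumour replicate 4, where the 9 genes are at 7.93. Wild-type tumour replicate 4 lies alone at 5.77 for epithelium.

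Among 9758 genes with at least 10 CPM on average over 38 libraries, leaving out the members, antigen receptor segments and systematic names, the 10 whose log2 level kept the most constant difference from the mean of the 9 members were H2-Eb2, Cd37, Tnfrsf13c, Chst3, H2-Ob, Fcrl1, Siglecg, Btla, H2-DMb2 and Bank1. The SD of that log2 ratio was 0.262 for H2-Eb2, a class II chain gene, 0.265 for both Cd37 and Tnfrsf13c, the tetraspanin CD37 and the receptor for the survival factor BAFF, and 0.442 for Bank1, an adaptor of B cell receptor signalling. The members themselves ran from 0.311 to 0.923, each being part of the mean it was set against, and the median over all genes ranked was 3.19. Libraries and scaling are shared by all these values, so the likeness is a description of these 38 libraries.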

How the data were processed

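RNA was purified on silica columns and made into stranded poly(A) libraries, per the labels' protocols. Per the submitters' processing notes the authors used Trimmomatic 0.36, TopHat2 2.0.14 and HTSeq with GRCm38. The sources used here do not name an HTSeq version, strand setting or annotation. Deposited values were raw counts per gene, 1 table per library. Lines naming no gene were left out of sizes and tests (no feature 3.00 to 13.3%, ambiguous 0.203 to 0.842% and not uniquely aligned 29.1 to 56.5% of a table). Symbols, coordinates and exon lengths came from GENCODE M21, which matched 49326 of 49585 identifiers.

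Groups were taken from the labelled genotype and tissue, and replicates were numbered in accession order, which pairs nothing. All 39 libraries entered 1 edgeR 4.0.16 quasi-likelihood fit (R 4.3.3) of 4 groups with TMM factors and filterByExpr. Benjamini-Hochberg adjustment ran over 16327 genes, and 0.05 was the threshold. SE was derived by dividing the absolute log2 fold change by the square root of F. CPM used TMM-scaled totals, and log levels used a pseudocount of 0.5 CPM. The fit was tested on simulated data, where it called nearly all genes changed in ex/ex tumours and few others. Those counts were drawn independently for each gene, with the same dispersion throughout. They do not cover genes that move together or are high in only some tumours of a group, as the members are. Intervals cover counting error only. The alternatives were DESeq2 1.42.0, limma-voom 3.58.1 with quality weights, other scaling, no filter, subsets of libraries and a covariate made from proximal and distal intestinal genes. The members and all lists were chosen with earlier results of these data known. All 9 members were named, together with Adam17, up to 4 genes of each other list with the smallest p, and the 10 genes most like the members. No protein sequence was used. Some items of the lists are not reported here.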

Additional observations from a re-analysis of the deposited data

Results flagged for a closer look

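Of 18 tests for a single distant library in the non-tumour groups, 5 met the threshold. Its nominal rate of 1 in 20 assumes independent, normally distributed values and does not hold for few reads in shared libraries. In wild-type non-tumour tissue, replicate 1 stood above the other 3 libraries at 6.06 CPM for Ms4a1, at 36.3 CPM for Pax5 and at 24.2 CPM for Blk. These stand on 1, 6 and 4 reads in the library with 438639 counts. Replicate 2 of wild-type non-tumour tissue stood apart for Fcrl5 at 0.101 CPM, a single read where the others had 0. In ex/ex non-tumour tissue, replicate 2 stood apart for Pax5 at 2.12 CPM, against 0.131 to 0.752 CPM in the other 5.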

How the results depend on the processing

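The 9 calls in ex/ex tumours over ex/ex non-tumour tissue and the absence of calls between ex/ex and wild-type non-tumour tissue held under every alternative run. The 3 calls in ex/ex over wild-type tumours became 5 with DESeq2, 1 with DESeq2 size factors, 0 with total counts only, 0 without the low-count filter, 9 with limma-voom, 0 with only the 2 groups compared, 7 without the libraries that held Ddx3y and, chosen after seeing the data, 9 without wild-type tumour replicate 4 and wild-type non-tumour replicate 1. Leaving out 1 library gave 0 to 9. The all-gene counts called higher there moved too, from 2488 of 16327 in the main fit. They were 2474 of 16327 with DESeq2 size factors and 1072 of 16327 with total counts only. Without the filter they were 2150 of 34856, and with only the 2 groups 2162 of 14714. Without the Ddx3y libraries they were 3665 of 16284, and without the pair 3996 of 16502. The single call in wild-type tumours over wild-type non-tumour tissue became 6 with DESeq2, 2 with total counts only and 0 under each of DESeq2 size factors, no filter, limma-voom, only the 2 groups, no Ddx3y libraries, the position covariate and the pair of libraries left out, and it was 0 to 1 with 1 library left out. Over all genes, that comparison called 310 of 16327 higher in the main fit, 614 of 16281 with DESeq2 and 683 of 16327 with total counts only. The interaction went to 9 calls with limma-voom. Estimates that were not called turned sign in places. In wild-type tumours over wild-type non-tumour tissue, limma-voom gave -0.41 for Cd79a, -0.45 for Cd79b, -0.72 for Pou2af1 and -0.30 for Fcrla. In ex/ex over wild-type non-tumour tissue, Pax5 went to 0.96 with limma-voom, 1.27 without wild-type non-tumour replicates 1 and 4 and 1.26 without the pair of libraries, and Cd22 to 0.94 with limma-voom and 0.76 without replicates 1 and 4. Blk, near 0 there, went to -2.64 with DESeq2, -0.005505 with DESeq2 size factors, -0.0506 with total counts, -0.0276 without the filter, -0.0844 without Ddx3y libraries and -0.0158 with the position covariate, and Pou2af1 to -0.023 with DESeq2. With 1 library left out, these non-tumour estimates ran from -0.036 to 0.29 (Cd79b), -0.85 to 1.25 (Pax5), -0.60 to 0.53 (Cd22), -0.51 to 0.68 (Blk) and -0.026 to 0.35 (Pou2af1). The Fcrl5 interaction turned to 0.57 with DESeq2, 4.33 with limma-voom and 0.055 without the pair of libraries, and ran from -2.41 to 0.068 with 1 library left out. The causes were not tested. No paired analysis was possible because the labels give no replicate numbers. The depth of wild-type non-tumour replicate 1 limits Ms4a1, Pax5, Blk, Fcrl5 and Fcrla there.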
